A study of Mus musculus with 10 samples.

Results

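The sites described here are H3K4me3 peaks that lay far from the annotated ends of protein-coding genes in cultured neural stem and progenitor cells of the mouse embryonic forebrain. They were taken from the peak list of the H3K4me3 library of the control cells. A peak was a member when it lay on chromosomes 1 to 19, was shorter than 3000 bp, overlapped no H3K27me3 peak of the control cells, and had its summit more than 5 kb from both annotated ends of every protein-coding gene in the RefSeq annotation of GRCm38. The rule kept 2825 of the 17322 control H3K4me3 peaks, and these 2825 are called distal sites below. Its first 3 conditions alone left 11046 peaks, of which 7025 had a summit within 1 kb of an end and are called gene-end peaks, and 1196 lay between 1 and 5 kb from an end. The members just inside the distance limit had summits 5014 bp from an end, at Phf21a and Arhgef17, and the peaks just outside it lay at 4995 bp, at Rtn2, and 4994 bp, at Dcun1d1. The members just inside the length limit were 2988 and 2978 bp long, at Rbms3 and Iqschfp, and the peaks just outside it were 3006 and 3015 bp long, at Epc1 and Dclk1.

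The cells came from E13.5 forebrains and were grown to passage 2–3 with epidermal and fibroblast growth factor at 20 ng/ml each. One culture group received 10 mM crotonate for 24 h, and the control group received water. Native chromatin immunoprecipitation, which uses chromatin that was not crosslinked, was followed by sequencing for H3K4me3, H3K9cr, H3K27ac and H3K27me3 in both groups, each as 1 library. There was no replicate, and no difference between the treatments could be tested. A site is called lost for a mark when no crotonate peak of that mark overlapped it by at least 1 bp, and kept otherwise, so both words describe lists of calls and not amounts of a modification. Because a control H3K4me3 peak and the absence of control H3K27me3 chose the sites, H3K4me3 could only be kept or lost at them and H3K27me3 could only be gained.

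The 8 lists held between 17322 and 59868 peaks. Read totals could not be drawn on. As a stand-in for depth, the lowest local background that any peak implied was 2.87 fragments in the crotonate and 2.91 in the control H3K4me3 list. It was 3.205 in crotonate and 3.74 in control for H3K9cr, 2.68 in crotonate and 3.11 in control for H3K27ac, and 2.67 in crotonate and 2.69 in control for H3K27me3. The catalogue number of each antibody was the same in both treatments, but the labels name different vendors for the crotonate and the control library of H3K4me3 and of H3K27me3, and the part of this in any difference between them was not tested. All 20 listed genes that mark neural stem and progenitor cells, Sox2, Nes and Pax6 among them, had an H3K4me3 peak at an end in crotonate and in control, and none of the 6 listed microglia genes did in either. H3K4me3 also stood at an end of 10 of 12 listed neuron genes, 5 of 7 of the oligodendrocyte lineage, 4 of 6 of mesenchyme and 3 of 6 of astrocytes in each treatment, and of 7 genes of endothelium and mural cells 1 in crotonate and 2 in control. H3K27me3 stood at an end of 7 of the 20 progenitor genes in crotonate and 15 in control, and of 7 and 10 of the 12 neuron genes. H3K27ac stood at an end of 19 progenitor genes in crotonate and 20 in control, and of 3 and 5 neuron genes. An H3K4me3 peak at an end thus does not by itself show an active gene.

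H3K4me3 is trimethylation of lysine 4 of histone H3 and is known for marking the nucleosomes just downstream of active and poised transcript starts. It is laid down by complexes of the SET1 and MLL families, which are drawn to stretches rich in unmethylated CpG. Enhancers typically carry monomethylated lysine 4 with H3K27ac, so that H3K4me3 away from known starts is often read as a start that the annotation lacks, a start of a noncoding transcript, or a very active enhancer. H3K9cr is crotonylation of lysine 9, an acylation that uses crotonyl-CoA, which cells make from crotonate, and that is found with acetylation at active chromatin. H3K27me3 is the mark of Polycomb repression.

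Promoter sequences are shown for 8 of the sites because they carry the main finding of their position, that the strongest of these peaks lay on transcript starts that are not the ends of a gene in the annotation, or on starts of noncoding genes. Each runs from 250 bases before to 50 bases after a RefSeq start on the strand of the gene, from RefSeq GRCm38.p6, and is written 5′ to 3′. Capitals mark motifs found on either strand: the GC box GGGCGG or CCGCCC, the CCAAT box CCAAT or ATTGG, the ETS site CCGGAAG or CTTCCGG, and the TATA box TATAAA or TTTATA, with overlapping matches of any of them run together in capitals. The first 3 belong to the strongest sites, Ccdc174 (chr6:91877803-91878102, plus strand), Gmps (chr3:63975893-63976192, plus strand) and Oip5os1 (chr2:119594046-119594345, plus strand). The next 3 are noncoding genes of a list of known noncoding RNAs, Airn (chr17:12741061-12741360, plus strand), Kcnq1ot1 (chr7:143296498-143296797, minus strand) and Snhg5 (chr9:88522848-88523147, minus strand). The last 2 lie at sites that lost H3K4me3, Gm9936 (chr5:114859378-114859677, minus strand) and Gm46122 (chr9:83316458-83316757, plus strand).
Ccdc174: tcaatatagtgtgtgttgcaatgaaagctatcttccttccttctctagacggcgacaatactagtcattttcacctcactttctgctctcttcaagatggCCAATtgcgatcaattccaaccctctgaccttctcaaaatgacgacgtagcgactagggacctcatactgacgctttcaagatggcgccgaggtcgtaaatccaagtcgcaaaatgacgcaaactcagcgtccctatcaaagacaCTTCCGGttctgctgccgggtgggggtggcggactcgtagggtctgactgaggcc
Gmps: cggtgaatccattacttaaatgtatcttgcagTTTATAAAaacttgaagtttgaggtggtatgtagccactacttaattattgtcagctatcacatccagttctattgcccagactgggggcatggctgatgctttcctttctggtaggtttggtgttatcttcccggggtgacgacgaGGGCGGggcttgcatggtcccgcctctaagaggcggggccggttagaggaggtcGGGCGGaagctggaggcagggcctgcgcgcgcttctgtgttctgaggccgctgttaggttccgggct
Oip5os1: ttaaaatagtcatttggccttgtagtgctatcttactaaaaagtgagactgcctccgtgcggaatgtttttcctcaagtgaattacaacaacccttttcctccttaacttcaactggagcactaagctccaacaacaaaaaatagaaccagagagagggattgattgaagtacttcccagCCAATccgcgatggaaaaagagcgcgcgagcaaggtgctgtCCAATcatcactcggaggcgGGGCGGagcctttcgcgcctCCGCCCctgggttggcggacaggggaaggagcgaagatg
Airn: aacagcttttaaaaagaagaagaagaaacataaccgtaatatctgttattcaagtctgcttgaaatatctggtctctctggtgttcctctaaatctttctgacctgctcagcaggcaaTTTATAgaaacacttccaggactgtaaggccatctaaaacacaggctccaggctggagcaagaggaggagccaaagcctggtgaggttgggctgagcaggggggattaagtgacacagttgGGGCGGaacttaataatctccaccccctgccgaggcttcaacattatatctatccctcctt
Kcnq1ot1: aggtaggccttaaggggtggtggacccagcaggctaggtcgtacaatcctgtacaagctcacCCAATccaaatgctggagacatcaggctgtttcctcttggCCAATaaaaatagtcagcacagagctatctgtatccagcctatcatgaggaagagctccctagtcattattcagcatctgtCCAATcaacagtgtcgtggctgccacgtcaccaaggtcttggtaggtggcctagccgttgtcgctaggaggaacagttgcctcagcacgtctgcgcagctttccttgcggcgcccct
Snhg5: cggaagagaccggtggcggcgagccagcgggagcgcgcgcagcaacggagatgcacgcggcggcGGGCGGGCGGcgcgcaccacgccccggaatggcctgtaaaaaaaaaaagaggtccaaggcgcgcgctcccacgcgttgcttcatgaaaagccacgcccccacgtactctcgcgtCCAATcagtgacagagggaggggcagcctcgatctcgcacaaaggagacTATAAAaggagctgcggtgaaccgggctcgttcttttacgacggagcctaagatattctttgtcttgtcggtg
Gm9936: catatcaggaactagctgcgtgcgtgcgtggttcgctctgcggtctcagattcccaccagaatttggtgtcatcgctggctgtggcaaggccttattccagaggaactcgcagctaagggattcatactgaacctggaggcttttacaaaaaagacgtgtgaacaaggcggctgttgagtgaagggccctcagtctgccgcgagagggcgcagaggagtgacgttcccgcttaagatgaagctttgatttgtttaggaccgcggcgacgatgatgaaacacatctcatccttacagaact
Gm46122: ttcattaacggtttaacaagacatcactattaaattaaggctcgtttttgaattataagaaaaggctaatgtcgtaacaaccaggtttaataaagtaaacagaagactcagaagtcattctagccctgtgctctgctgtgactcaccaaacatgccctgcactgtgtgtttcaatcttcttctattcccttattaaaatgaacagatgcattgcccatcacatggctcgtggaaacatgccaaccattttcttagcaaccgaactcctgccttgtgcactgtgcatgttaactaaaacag
The Snhg5 stretch held 36 CpG and the Ccdc174 stretch 17, and the sequence at Airn held 3 and that at Gm46122 held 5. Neither of these 2 sequences at lost sites held any of the 4 motifs, although 16 of all 37 starts at lost sites held a CCAAT box.

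The strongest distal sites were transcript starts inside annotated genes. The site of highest −log10 q, inside Ccdc174, had a pileup, the number of stacked fragments at the summit, of 1114 in crotonate and 1220 in control, and its summit lay 319 bp downstream of the RefSeq start of Ccdc174 printed above. That start lies inside the span that the annotation gives the gene, and the nearest end of any coding gene was 21477 bp away. The next strongest lay 335 bp into Oip5os1, the mouse Cyrano long noncoding RNA, with pileups of 1002 in crotonate and 1152 in control, and 389 bp into Gmps, which encodes GMP synthetase of purine synthesis, with 974 in crotonate and 1141 in control. Of the 10 strongest, 8 had a RefSeq start within 1 kb of the summit. Cnot8, a deadenylase subunit of the CCR4-NOT complex, had its summit on the start itself, with pileups of 1033 in crotonate and 1112 in control. Psma6, an alpha subunit of the 20S proteasome, had 893 in crotonate and 1054 in control, 321 bp downstream of its start. The remaining 2 of the 10 lay inside Metap2, a methionine aminopeptidase, 1751 bp from its start, and inside Asah1, which encodes the lysosomal acid ceramidase and has no start near this site in the start table used. All 10 carried H3K9cr and H3K27ac in crotonate and in control and H3K27me3 in neither.

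Over all distal sites off chromosome 18, for which the start table held no entries, 461 of 2720 had their summit within 1 kb of a protein-coding RefSeq start. That is 16.9% (exact Clopper-Pearson 95% interval 15.6 to 18.4, which covers counting error only, as do all intervals below), against 0.486% (0.407 to 0.575) of 27790 control H3K27ac peaks that met the same rule of position and length but overlapped no H3K4me3 peak. The H3K27ac peaks were chosen to lack H3K4me3, a mark of transcript starts, so a low share there was partly built in. Over all control H3K4me3 peaks the share was 59.6%, and at gene-end peaks it was 82.02%. All 461 lay inside the gene of that start, which follows from the rule, since a start lies within the span of its gene. Starts and ends of noncoding genes accounted for a further 484 sites. The remaining 1775 sites, 65.3%, were at neither, with 799 inside coding genes and 976 between them. The label of these sites thus held for gene ends as annotated, and not for transcript starts in general, and the start table covered 16457 of 20154 coding genes, so that starts it lacks were counted as absent.

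**Figure D1:**
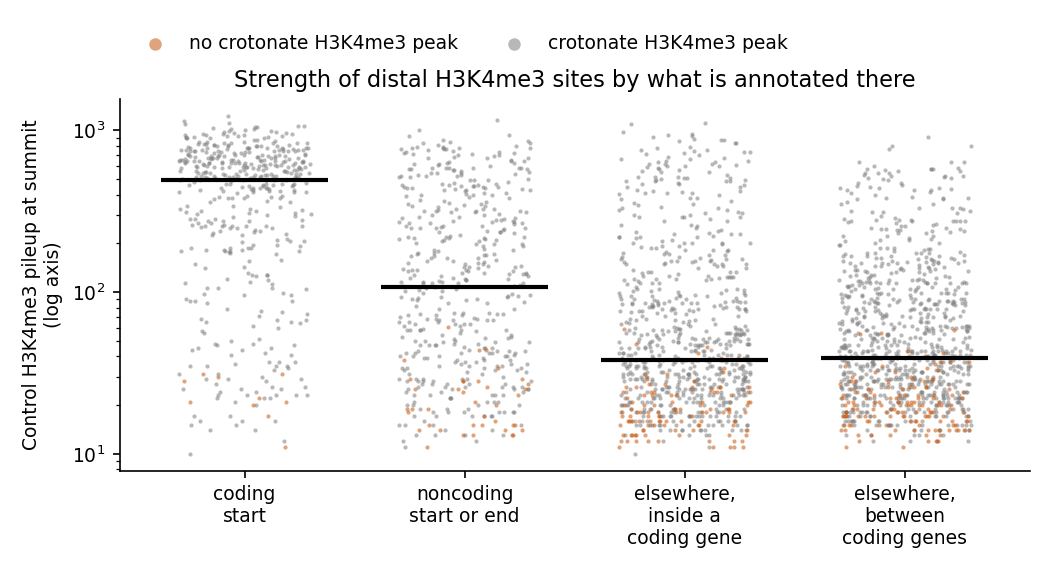
Control H3K4me3 pileup at the summit (log axis) of each distal site off chromosome 18, grouped by what the annotation has within 1 kb of the summit; black bars are medians and orange points are sites without a crotonate H3K4me3 peak. The median was 495 at coding starts, 107 at noncoding starts or ends, 38 elsewhere inside coding genes and 39 between them, and the orange points lie at the bottom of every group.

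The classes differed in the strength of the mark. The median control pileup was 495 at coding starts, with 178 and 670 at the quartiles, and 107 at noncoding starts or ends, with 34 and 315. It was 38 at the other sites inside coding genes and 39 at those between genes. Of the distal sites in the highest quartile of the whole control list, 97 of 151, or 64.2%, lay at coding starts, and of those in the lowest quartile 89 of 1617 did, or 5.50%. At coding starts the summit stood downstream of the start at 404 of 461 sites, or 87.6%, by a median of 171 bp, and at the gene-end peaks with a start in the table by a median of 191 bp. At noncoding starts the median was 133 bp downstream and 178 of 248 sites, or 71.8%, were on that side. This is the position in which H3K4me3 is known to sit at ordinary promoters.

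**Figure D2:**
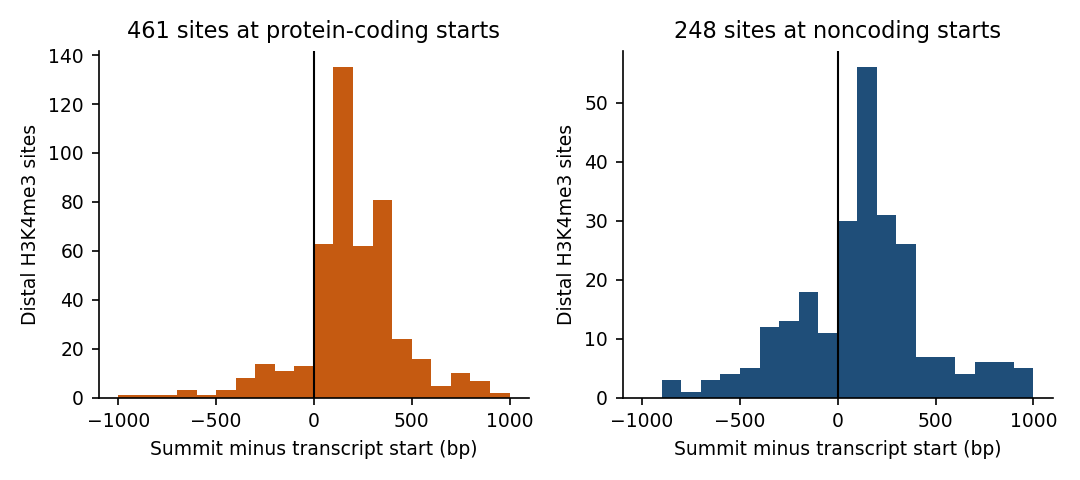
Histogram (bins of 100 bp) of the distance from the RefSeq transcript start to the control H3K4me3 summit, positive downstream on the strand of the gene, for the distal sites within 1 kb of a protein-coding start (left) and of a noncoding start (right). Most summits stand a short way downstream, with a median of 171 bp at the 461 coding starts and 133 bp at the 248 noncoding starts.

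The starts at distal sites were richer in CpG than starts without H3K4me3. The 300-base windows of 535 coding starts at distal sites held a median of 16 CpG, with 8 and 27 at the quartiles, against 22 at 11203 coding starts under other control H3K4me3 peaks and 3 at 8347 coding starts away from any. A GC box stood in 56.8% of the windows at distal sites, 69.8% of those under other H3K4me3 peaks, 15.9% of those away from peaks and 35.98% of all 31396 starts in the table. The 348 noncoding starts at distal sites had a median of 11 CpG and a GC box in 40.8%. A CCAAT box was found in 34.6% of the coding windows at distal sites, 37.3% of all starts and 37.8% of coding windows under other H3K4me3 peaks. An ETS site stood in 11.4% of the coding windows at distal sites, 18.6% of those under other H3K4me3 peaks and 9.004% of all starts. The TATA box stood in 6.73% of the coding windows at distal sites, 5.76% of those under other H3K4me3 peaks and 13.6% of all starts. At the 37 starts of sites that lost H3K4me3 the median was 7 CpG and a GC box stood in 4 windows, or 10.8%. In the same 37 a CCAAT box stood in 16, or 43.2%, a TATA box in 4, or 10.8%, and an ETS site in 0.

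Noncoding genes lay at some of the distal sites. The summit was within 1 kb of an annotated end of a noncoding gene at 542 of 2825 sites, or 19.2% (17.7 to 20.7), against 4.66% (4.42 to 4.91) of 29002 distal control H3K27ac peaks without H3K4me3. The share was 15.5% over all control H3K4me3 peaks, 14.8% over the 11046 that met the other conditions of the rule and 13.1% (12.4 to 14.0) of the gene-end peaks. The distal sites were thus much nearer in this to other H3K4me3 peaks than to H3K27ac peaks without H3K4me3. Those H3K27ac peaks were chosen to lack a mark of transcript starts, so a low share there was partly built in. Long noncoding RNAs accounted for 401 of the 542, tRNA genes for 54, pseudogenes for 37, transcribed pseudogenes for 21, small nuclear RNA genes for 12 and microRNA genes for 9. The whole annotation held 28056 noncoding genes, those of X and Y included, and the 542 sites were all those at an end of any of them. Of a list of 73 known noncoding RNAs, 70 were in the annotation and 12 had a distal site within 1 kb of an end.

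Among those 12 were Airn and Kcnq1ot1, long noncoding RNAs that silence imprinted gene clusters in cis from the paternal chromosome. The Airn site, inside Igf2r, had H3K4me3 pileups of 366 in crotonate and 346 in control, H3K9cr pileups of 204 and 392, and H3K27ac pileups of 50 and 64, in the same order. The Kcnq1ot1 site, inside Kcnq1, had H3K4me3 pileups of 453 in crotonate and 457 in control, H3K9cr of 239 and 370, and H3K27ac of 71 and 88. Both sites thus carried the 3 active marks in both treatments, and neither carried H3K27me3. The host genes of small nucleolar RNAs, transcripts whose introns are cut into guides for RNA modification, were Snhg4, Snhg5, Snhg15, Snhg17 and Snhg20. Their H3K4me3 pileups were between 480 and 758 in crotonate and between 425 and 782 in control. Mir22hg, the host of microRNA 22, had 540 in crotonate and 641 in control. Mir100hg, which hosts microRNAs of the let-7, 100 and 125 families, had 81 in crotonate and 62 in control. The Malat1 site differed from these, since it stood 824 bp from the end and 7806 bp from the start of this abundant nuclear RNA, with H3K4me3 pileups of only 17 in crotonate and 14 in control but H3K9cr pileups of 714 and 780. At Pantr2, next to the neural transcription factor gene Pou3f3, the control peak had a pileup of 23, and the crotonate peak that covered it was 18892 bp long with a pileup of 713, so these values are not of the same stretch.

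Small RNA genes were among the sites too, and these were singled out after their values were seen. The genes of the Y RNAs Rny1 and Rny3, which bind the Ro protein, each had a site. Its H3K4me3 pileup was 131 in crotonate and 131 in control at Rny1, and 163 in crotonate and 182 in control at Rny3. The 54 sites at tRNA genes had a median control pileup of 318, and 26 of them lay on chromosome 13, where tRNA genes neighbour histone genes. Of all 2825 distal sites 175 lay on that chromosome, and its share of the annotated tRNA genes was not counted. The strongest of the 54, at the lysine tRNA gene n-TKctt14, had pileups of 798 in crotonate and 856 in control. Of 391 annotated tRNA genes on the autosomes, 286 lay more than 5 kb from coding ends, and 157 of these, 54.9% (48.9 to 60.8), carried H3K4me3 in crotonate and the same number in control, with 4 in crotonate alone and 4 in control alone. H3K9cr was at 155 of the 286 in crotonate and 151 in control, H3K27ac at 142 and 135, and H3K27me3 at 47 and 55. Reads of near-identical tRNA genes can map to several copies, and the sources used here do not say how such reads were placed. The Mir128-2 site, at a microRNA gene inside the neuronal gene Arpp21, was weak, with a pileup of 14 in control and no peak in crotonate.

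Nearly every distal site carried both acylations. H3K9cr was at 2783 of 2825 sites in crotonate, or 98.5% (98.0 to 98.9), and at 2784 in control, or 98.5% (98.0 to 99.0), while 99% and 98.5% of all control H3K4me3 peaks had it in crotonate and in control. H3K27ac was at 2566 sites in crotonate, or 90.8% (89.7 to 91.9), and at 2609 in control, or 92.4% (91.3 to 93.3), with 87.3% and 88% over all control H3K4me3 peaks. At the gene-end peaks H3K27ac stood at 98.1% in crotonate and 98.4% in control. H3K4me3, H3K9cr and H3K27ac together were present in both treatments at 2235 distal sites, or 79.1% (77.6 to 80.6). Crotonate minus control, the count was -1 site for H3K9cr and -43 sites for H3K27ac. When 50% of both peaks had to overlap, these differences were 104 and 108 sites, so neither direction was fixed.

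**Figure D3:**
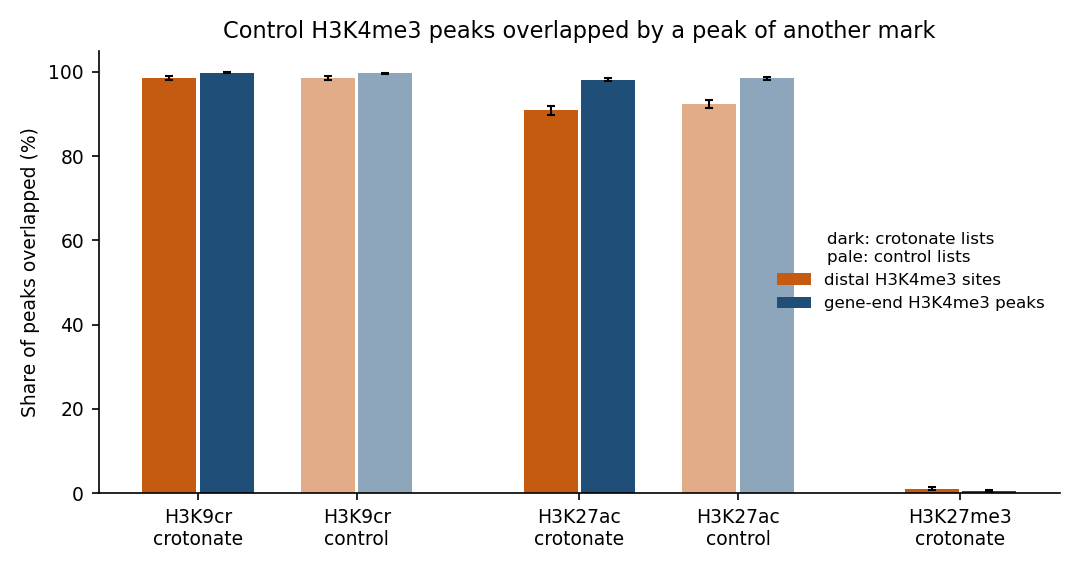
Share of distal sites (orange, 2825) and gene-end peaks (blue, 7025) overlapped by a peak of H3K9cr, H3K27ac or H3K27me3, with the crotonate list (dark) left of the control list (pale); lines are exact 95% intervals for counting error. H3K9cr stands at 98.5% of distal sites in both treatments, H3K27ac at 90.8% in crotonate and 92.4% in control, and crotonate H3K27me3 at 0.991%; control H3K27me3 is not drawn since the rule leaves it out.

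Few sites changed their acylation call. H3K9cr was lost at 26 of the 2784 sites that had it, or 0.934% (0.611 to 1.37), against 0.492% over all control H3K4me3 peaks with the mark, and gained at 25 of 41 that lacked it, or 61.0% (44.5 to 75.8), against 66.8%. H3K27ac was lost at 98 of 2609, or 3.76% (3.06 to 4.56), against 3.35%, and gained at 55 of 216, or 25.5% (19.8 to 31.8), against 18.6%. The intervals of the H3K9cr gains and the H3K27ac losses hold the share over all peaks, and those of the H3K9cr losses and the H3K27ac gains lie above it. Among the 11046 peaks that met the other conditions of the rule, the distal sites included, H3K27ac was lost at 1.59%, below the distal interval, and gained at 25.7%, inside it, so for H3K27ac the reading depends on the peaks set beside it. H3K9cr was lost at 0.373% of those peaks and gained at 58.2%. The strongest H3K9cr loss, near the Arf exchange factor gene Psd2, had a control H3K9cr pileup of 135 with no crotonate peak, and kept H3K4me3 with pileups of 55 in crotonate and 75 in control. The strongest H3K27ac loss, at the start of the noncoding gene Gm46122, whose sequence is printed above, had a control H3K27ac pileup of 41. It lost all 3 active marks, as did 4 distal sites in all. The strongest H3K27ac gain, 32025 bp from Pawr, had a crotonate pileup of 22 and kept H3K4me3 with 127 in crotonate and 118 in control. The strongest H3K9cr gain, near the G protein subunit gene Gng4, had a crotonate H3K9cr pileup of 61 with H3K4me3 of 133 in crotonate and 137 in control.

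Only 12 sites, 0.425% (0.220 to 0.741), had neither acylation in any list, against 0.468% of all control H3K4me3 peaks, which lies inside that interval, and 0.199% of the 11046 that met the other conditions of the rule. The strongest of them, near Gm40363, had H3K4me3 pileups of 84 in crotonate and 145 in control, and the next, near Pdcd6ip, had 66 and 91, in the same order. All 5 of the strongest were between 273 and 464 bp long and between genes. These are H3K4me3 calls without the marks that accompany it elsewhere.

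At acetylated distal sites, H3K9cr was called more often where H3K4me3 was present, although many sites without H3K4me3 had it too, 6975 of 29002 in crotonate and 8501 in control. Distal control H3K27ac peaks, 31096 in all, were split into 5 equal parts by their own −log10 q, and H3K4me3 was at 0.884%, 1.06%, 2.22%, 5.52% and 24.0% of them from the weakest to the strongest part, against 29.8% of all control H3K27ac peaks. In the weakest part, H3K9cr in crotonate was at 52 of 55 peaks with control H3K4me3, or 94.5% (84.9 to 98.9), and at 389 of 6165 without it, or 6.31% (5.72 to 6.95). In control it was at 96.4% (87.5 to 99.6) with H3K4me3 and 4.09% (3.61 to 4.61) without. Over all control H3K27ac peaks H3K9cr stood at 49.9% in crotonate and 53.6% in control. In the strongest part nearly all peaks with H3K4me3 had H3K9cr, 99.9% (99.5 to 99.98) in crotonate and 100% in control. Without H3K4me3, 66.5% (65.1 to 67.9) had it in crotonate and 86.4% (85.4 to 87.4) in control. The share with H3K9cr was thus 94.5% or more with H3K4me3 in every part and either treatment. The parts match acetylation only coarsely, since the strongest ran from a −log10 q of 19.8 to 319.8. Whether peaks with and without H3K4me3 differed in acetylation inside a part was not tested. The peaks with H3K4me3 were of like length or shorter, with a median length of 322 bp against 318 bp without it in the weakest part and 1649.5 bp against 1843 bp in the strongest. The labels do not say whether the libraries of a treatment came from the same chromatin, and the part of how well each antibody separates its own mark was not tested.

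**Figure D4:**
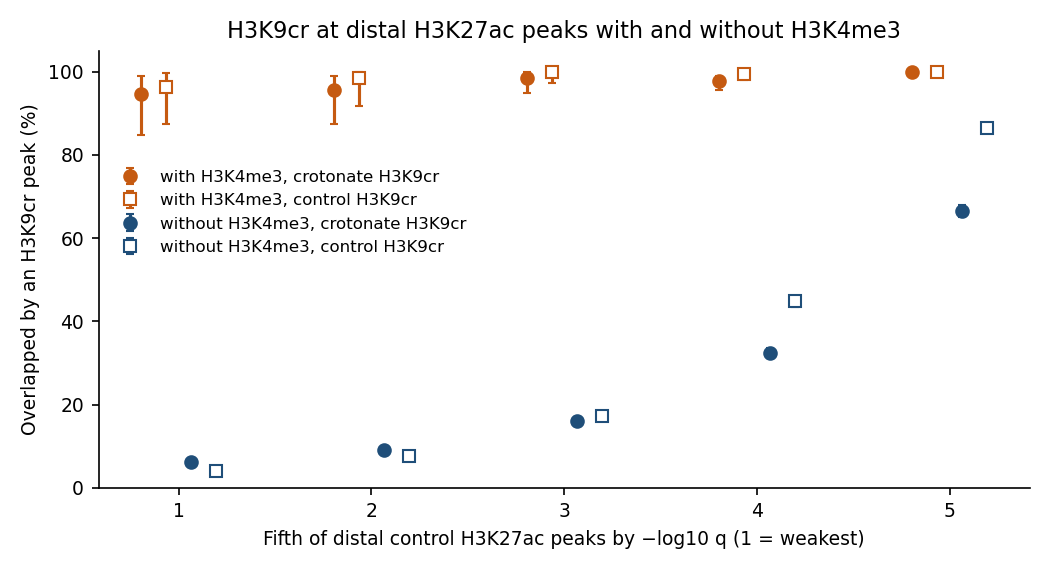
Share of distal control H3K27ac peaks overlapped by an H3K9cr peak, in 5 equal parts by their −log10 q (1 is the weakest), for peaks with (orange) and without (blue) control H3K4me3 and for H3K9cr in crotonate (filled) and in control (open); lines are exact 95% intervals for counting error. The orange points stay at 94.5% or above in every part, while the blue ones run from 6.31% in crotonate and 4.09% in control to 66.5% in crotonate and 86.4% in control.

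Acetylation was also kept more often where H3K4me3 was present. In the middle of the 5 parts, 29 of 138 H3K27ac peaks with H3K4me3 were lost in crotonate, or 21.0% (14.5 to 28.8), against 34.2% (33.0 to 35.4) of those without, and in the next stronger part 6.71% (4.30 to 9.89) against 12.8%. In the weakest part the shares were 60.0% (45.9 to 73.0) with H3K4me3 and 65.4% without, and the interval of the first holds the second. Of all control H3K27ac peaks 25.3% were lost. These shares compare peaks of the same libraries, and no test across cultures was possible. Here too, a difference in acetylation strength inside a part was not tested.

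H3K4me3 itself was lost at 321 of 2825 distal sites, or 11.4% (10.2 to 12.6), against 2.81% of all control H3K4me3 peaks and 0.370% (0.242 to 0.542) of the gene-end peaks. The distal sites were weaker peaks to begin with. Their control pileups had a median of 56, with 26 and 221 at the quartiles and a range of 10 to 1220, and their median length was 694 bp. The gene-end peaks had a median pileup of 679 and a median length of 1640 bp. Of the distal sites, 59.7% lay in the lowest quartile of the whole list by −log10 q, against 5.55% of the gene-end peaks. Every lost peak, distal or not, lay in that quartile. None of the 1139 distal sites above it was lost, and taking 3 counts as the most that a count of 0 allows, the share could be up to 0.263%. When only the stronger 50% of the crotonate H3K4me3 list was followed, 82.4% of the distal sites had no partner, so most kept sites were matched by peaks of the weaker 50%.

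Within the lowest quartile, 321 of 1686 distal sites were lost, or 19.04% (17.2 to 21.0), against 26 of 390 gene-end peaks, or 6.67% (4.40 to 9.62). In the weakest twentieth of the list, where both kinds had peaks of about the same length, 43.2% (38.3 to 48.2) of the distal sites and 22.8% (12.7 to 35.8) of the gene-end peaks were lost. In the next, 24.5% (20.3 to 29.1) and 12.9% (5.74 to 23.9) were lost, in the same order, and the intervals overlap. Matched for strength in this way, the distal sites still had the higher share in all 5 parts of the lowest quartile, and in 4 of them the intervals overlap. By what is annotated there, 11.2% of the coding starts in the lowest quartile were lost, 17.5% of the noncoding starts or ends, 19.5% of the other sites inside genes and 20.2% of those between genes. When only the stronger 50% of the crotonate list was followed, the distal sites exceeded the gene-end peaks in this quartile by 1.06 percentage points, against 12.4 with the whole list. That setting removes weak partners by construction, and 82.4% of all distal sites then had none. The smaller difference therefore cannot tell whether the excess holds. The intervals of the 4 shares by annotation overlap, with 5.52 to 19.7 for the first and 17.3 to 23.3 for the last.

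**Figure D5:**
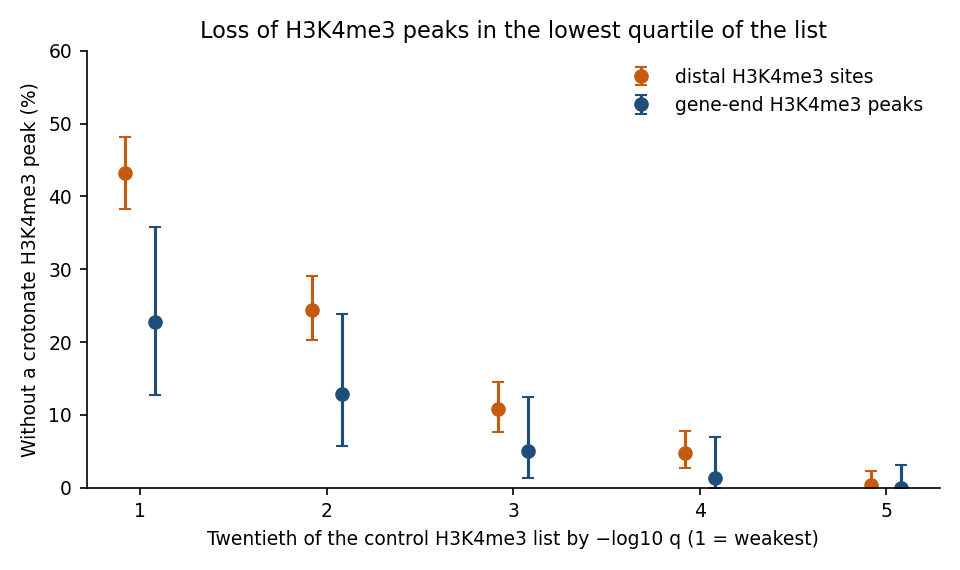
Share of control H3K4me3 peaks without a crotonate H3K4me3 peak, in the 5 weakest of 20 equal parts of the control list by −log10 q, for distal sites (orange) and gene-end peaks (blue); lines are exact 95% intervals for counting error. In the weakest part 43.2% of distal sites and 22.8% of gene-end peaks were lost, and in the last part 0.407% and 0%.

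The strongest lost site lay inside Cmip, 21845 bp from its end, with a control pileup of 59 and no crotonate H3K4me3 peak. It kept H3K9cr, at 102 in crotonate and 282 in control, and H3K27ac, at 99 in crotonate and 156 in control. The next lay 6822 bp from the RNA helicase gene Dhx40, with a control pileup of 55. The site at the start of Gm9936, inside 4930519G04Rik, had 61 and carried H3K9cr but no H3K27ac in either treatment. The sites near Zfpm2, a GATA cofactor gene, and inside Dclk1, a kinase gene of migrating neurons, had 56 and 48 and kept both acylations. Most of the lost sites still had an acylation call, with H3K9cr at 303 of 321 in crotonate, or 94.4% (91.3 to 96.6), and H3K27ac at 278, or 86.6% (82.4 to 90.1). At kept sites these shares were 99.04% and 91.4%. Acylation calls were nonetheless lost more often at these sites. H3K9cr was lost at 13 of 312 that had it, or 4.17% (2.24 to 7.02), against 13 of 2472 sites that kept H3K4me3, or 0.526% (0.280 to 0.898), and H3K27ac at 7.53% (4.78 to 11.2) against 3.28% (2.59 to 4.09). These comparisons were not matched for strength, since every lost site lay in the lowest quartile and 1139 kept sites lay above it. Over all distal sites of that quartile, crotonate H3K9cr stood at 97.6% and crotonate H3K27ac at 86.2%. The part of strength in the differences was not tested. The lost sites had a median control pileup of 19 and a median length of 346 bp.

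The crotonate H3K4me3 list gave a like picture from its own side. The same rule applied to the crotonate lists kept 3092 peaks, of which 2427, or 78.5%, overlapped a distal site of the control list. No control H3K4me3 peak overlapped 433 of them, or 14.0% (12.8 to 15.3), against 6.88% of all crotonate H3K4me3 peaks. Of these 433, 368 carried H3K9cr in crotonate and 328 in control, and 261 and 259 carried H3K27ac. Losses at 11.4% and gains at 14.0% thus came from lists of 17322 control and 18001 crotonate peaks.

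Distance from the ends of coding genes went with strength, and also with the share of sites at coding starts. That share was 26.7% at 5 to 10 kb and 7.51% beyond 100 kb, and its part in the strength was not tested. The median control pileup was 112.5 at the 596 sites 5 to 10 kb from a coding end, 72 at 10 to 20 kb, 55 at 20 to 50 kb, 51 at 50 to 100 kb and 33 at the 466 sites beyond 100 kb. The lost share was 9.40% (7.18 to 12.03) in the nearest class and 14.6% (11.5 to 18.1) in the farthest, and these intervals overlap. The farthest site of all, 1209874 bp from Ndufa4, had H3K4me3 pileups of 32 in crotonate and 35 in control and H3K9cr in both. Another site near that gene, 929802 bp away, had H3K9cr pileups of 136 in crotonate and 299 in control and lay 445 bp from an end of the noncoding gene Gm35822.

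H3K27me3 appeared in crotonate at 28 of 2825 distal sites, or 0.991% (0.660 to 1.43), against 0.58% of all control H3K4me3 peaks that lacked it and 0.470% (0.324 to 0.659) of the gene-end peaks. The share was 5.81% when peaks within 1 kb counted and 0.425% when the summit had to lie inside the other peak. All 28 were weak, with crotonate pileups of 9 to 17. The strongest lay near the interferon-inducible GTPase gene Irgm2, with an H3K27me3 pileup of 17 and H3K4me3 of 73 in crotonate and 24 in control. The others of the 5 strongest lay near H3f3a, which encodes the replacement histone H3.3, near the zinc finger genes Zfp677 and Zfp950, and at the start of Tlcd3b, with H3K27me3 pileups of 15 or 16. All 5 kept H3K4me3. One of the 28, 29.5 kb from the oligodendrocyte lineage gene Olig1, had an H3K27me3 pileup of 12 in crotonate and H3K4me3 of 196 in crotonate and 150 in control. It was named after its values were seen. The crotonate H3K27me3 list was longer than the control list, with 34707 against 26031 peaks. With equal numbers of peaks per mark, 14 of 2825 distal sites gained H3K27me3, or 0.496% (0.271 to 0.830). The shares of the other peaks were not recomputed in that setting, so whether an excess remains there was not tested.

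Distal sites next to genes of neural stem and progenitor cells were mostly weak. The nearest coding gene was 1 of the 20 listed progenitor genes at 17 sites, which fell to 9 of these genes, and 3 of the 17 were lost. Of all 21887 coding genes, those of X and Y included, 2172 were nearest to a distal site. The part of gene spacing in this difference was not tested. Sox2, the transcription factor that maintains neural progenitors, had 6, between 15.8 and 215 kb from its nearest end, of which 2 were lost. The 6 had control H3K4me3 pileups of 14 to 45. One of those kept, 15.8 kb away, had H3K4me3 of 31 in crotonate and 19 in control beside H3K9cr of 512 and 910 and H3K27ac of 152 and 190. Emx2, a regulator of cortical patterning, had 3, and its H3K4me3 pileups lay between 31 and 36 in crotonate and between 36 and 40 in control. Sox9, a regulator of glial fate, had 2, of which 1 was lost. The listed genes of neurons had 5 sites, of astrocytes 4, of the oligodendrocyte lineage 5, of microglia 3, of mesenchyme 1 and of endothelium and mural cells 0. A nearest gene is named here only as a neighbour.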

How the data were processed

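Native ChIP-seq peak lists of 4 histone marks in crotonate and control cells, 1 library each, were used as deposited. The submitters' processing notes name Bowtie2 2.4.1, MACS2 2.2.7.1 and the build GRCm38. How peaks were called, what was done with duplicates and whether the inputs entered is not given in the sources used here. In the deposited lists, per the file headers, the pileup is a coverage signal at the summit, the fold enrichment is a ratio to local background, and the −log10 p-value and −log10 q-value are the authors' own for each peak. They were used here only to describe, rank and split peaks within a list, and no ratio was formed between lists.

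Members were found by the rule given at the opening. Overlap meant at least 1 bp, and where several peaks overlapped a site the strongest gave its pileup, so that 45 of 2504 kept sites were read from a crotonate H3K4me3 peak of 3000 bp or longer. Gene ends and starts came from RefSeq tables of GRCm38 and GRCm38.p6. Shares carry exact Clopper-Pearson 95% intervals, which treat peaks as independent and show no spread between cultures. Overlap and distance steps were checked on simulated data. Sites named are the strongest of each kind (all sites, lost, gained, without acylation), the farthest, those at a list of noncoding RNAs and those at the limits. The members, the lists and the tests were chosen with earlier results of these data known. Analyses used Python 3.11.15, pandas 2.3.3, numpy 2.4.6 and SciPy 1.17.1. Alternatives varied the distance, length, H3K27me3 and annotation conditions of the rule, the overlap, the strength of the lists and the window at noncoding ends.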

Additional observations from a re-analysis of the deposited data

How the results depend on the processing

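Of 169 values computed under 15 alternatives, 102 stayed within the interval or a factor of 1.5 of the reported value. The excess of losses in the lowest quartile, 12.4 percentage points between distal sites and gene-end peaks, lay between 11.9 and 18.3 except when the stronger 50% of each followed list was used. There it was 1.06, in a setting that removes weak partners of both kinds of peak by construction. With a distance limit of 2 kb the share inside coding genes was 52.8%, and the difference in H3K9cr sites, crotonate minus control, was -4; with 10 kb these were 46.9% and 3. With 50 kb, 891 sites remained, with 13.8% lost, H3K27ac at 89.6% in crotonate and 91.2% in control, 44.2% inside genes, 14.7% at noncoding ends, and differences of 4 for H3K9cr and -15 for H3K27ac. With a length limit of 1500 bp, 13.8% were lost, H3K27ac was at 88.9% in crotonate and 90.7% in control, 43.8% lay inside genes and 17.6% at noncoding ends. With sites under control H3K27me3 included, 9.23% were lost, control H3K9cr was at 97.6%, H3K27ac at 82.4% in crotonate and 83.7% in control, crotonate H3K27me3 at 21.8%, and the H3K9cr difference was 27. More than 5 kb from ends of genes of every type, crotonate H3K27me3 was at 0.573%, 59.1% lay inside genes, 0% at noncoding ends by construction, and the H3K9cr difference was 0. Among the 474 sites in the stronger 50% of the control H3K4me3 list, 0% were lost, H3K9cr and H3K27ac were at 100% in both treatments with differences of 0, crotonate H3K27me3 was at 0.211%, 74.5% lay inside genes and 26.4% at noncoding ends.

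With 50% of both peaks required to overlap, 16.6% were lost, H3K9cr was at 66.4% in crotonate and 62.8% in control, H3K27ac at 53.1% in crotonate and 49.2% in control, crotonate H3K27me3 at 0.248%, and the differences turned to 104 for H3K9cr and 108 for H3K27ac; the cause was not tested. With peaks within 1 kb counted as shared, crotonate H3K27me3 was at 5.81% and the H3K9cr difference was 6. With the summit required inside the other peak, crotonate H3K27ac was at 89.6%, H3K27me3 at 0.425% and the H3K9cr difference was -4. With the stronger 50% of each followed list, which removes weak peaks by construction, 82.4% were lost, H3K9cr was at 77.4% in crotonate and 77.2% in control, H3K27ac at 82.1% in crotonate and 82.0% in control, crotonate H3K27me3 at 0.212%, and the differences were 6 for H3K9cr and 2 for H3K27ac. With equal numbers of peaks per mark, 16.7% were lost, 9.37% of the crotonate sites had no control peak, crotonate H3K27me3 was at 0.496%, and the differences were -2 for H3K9cr and -70 for H3K27ac. Noncoding ends lay at 23.4% of sites within 2 kb and at 15.2% within 500 bp. No paired analysis was possible because each mark and treatment had 1 library. Every H3K4me3 loss lay in the lowest quartile of its list, and the part of sequencing depth in this was not tested, since read totals were not used here.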

Other observations

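The genes with the most distal sites as nearest coding gene, named after the values were seen, were the neural transcription factor gene Pou3f3 and the deubiquitinase gene Usp25 with 8 sites each and no loss, and Nfia with 7. Nfia encodes a regulator of glial differentiation, and all 7 sites lay inside its span of 541 kb. The strongest of these had H3K4me3 pileups of 312 in crotonate and 344 in control, and 2 of the 7, with control pileups of 11 and 18, were lost while both acylations were kept. Distal sites stood apart from each other for the most part, with a median of 157 kb to the nearest other one, and 332 of 2825, or 11.8%, lay within 10 kb of another. The largest run, 5 sites with gaps of at most 10 kb, lay on chromosome 3 next to BC107364 and Hjv, where small nuclear RNA and tRNA genes are annotated.

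Distal sites made up between 13.6% of the control H3K4me3 peaks, on chromosome 11, and 23.4%, on chromosome 13. Of the 28 sites that gained H3K27me3, 4 had a nearest gene whose symbol begins with Zfp, or 14.3%, against 90 of all 2825 distal sites, or 3.19%. When the distal H3K27ac peaks and their 5 parts were taken from the crotonate lists, a choice made after the values from the control lists were seen, H3K9cr in the strongest part without H3K4me3 was at 68.7% (67.5 to 69.9) in crotonate and 79.0% (77.9 to 80.1) in control, and with H3K4me3 at 99.7% in crotonate and 99.8% in control.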
